A study of Homo sapiens with 8 samples.

Results

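CAKI2 is an established human renal carcinoma line, and 2 of the 8 arrays of the series were made from it. They were compared with the 6 arrays of ACHN, A498 and CAKI1, 3 other established kidney cancer lines that the submitters also class as clear cell carcinoma. In each line, 1 array came from cells given the solvent DMSO and 1 from cells given A939572, an inhibitor of stearoyl-CoA desaturase 1, at 75 nM, and both treatments lasted 24 h. Treatment was kept as a block, so that the comparison concerned the line and not the drug. All lines came from a commercial repository and grew in the same DMEM medium with serum, per the labels' protocols. The labels do not say whether arrays came from separate cultures, and each line stands for 1 tumour, so the spread between lines is the only error available.

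Clear cell renal carcinoma arises from the epithelium of the nephron, and its cells usually keep PAX8, a transcription factor of the developing and adult renal tubule. Loss of the VHL protein, the ubiquitin ligase subunit that marks hypoxia-inducible factors for destruction, is the best known lesion of this cancer and raises genes of glycolysis, angiogenesis and pH control. Cell lines of the same tumour class differ in such programmes, in epithelial and mesenchymal traits and in chromosome content.

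Levels are given as quantile normalized log2(signal + 16), and a difference is CAKI2 minus the mean of the other 3 lines on that scale. A level of 6.50, the median of all probe sets, served as the bound of dim signal, and 13763 genes that reached it on at least 2 arrays were tested. The CAKI2 arrays did not stand apart in quality. Their median deposited signals were 76.5 in DMSO and 73.3 in A939572, within the 68.4 to 84.0 of all arrays. The 3′ to 5′ signal ratio of ACTB was 2.18 on the CAKI2 DMSO array and 3.39 on the A939572 array, between the lowest and highest of the other lines in the same treatment. That ratio was higher on all 4 A939572 arrays (3.02 to 4.22) than on the DMSO arrays (2.12 to 2.33), and its part in the results was not tested. PAX8 was bright in CAKI2, at 12.32 in DMSO and 12.66 in A939572, against 11.97 to 13.02 in the other lines.

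The CAKI2 arrays of both treatments correlated about as closely as those of any line, and they were somewhat less like the other lines than those were among themselves. Across tested genes, the arrays of the same line correlated at 0.943 to 0.957. CAKI2 correlated with the other lines at 0.848 to 0.869 in DMSO, where the other lines correlated among themselves at 0.863 to 0.897. In A939572 the ranges were 0.858 to 0.875 and 0.879 to 0.903. These are correlations across genes, which are not independent replicates, and pairs share arrays.

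With the line as the replicate, limma called 2 genes lower in CAKI2 (0.0145% of the genes tested) and 0 higher (0%) at a Benjamini-Hochberg adjusted p of 0.05. The called genes were JAK1 and BCAT1. Before adjustment 488 genes were lower and 485 higher below 0.05 by limma, and with line as a random block on all 8 arrays 65 and 31 passed the adjusted threshold. In simulated data of this design, 2% of genes changed by 2 log2 units were recovered and 88% of those changed by 4, so a missed threshold says little here. The fit also made 10 false calls in those data, so a passed threshold is not certain either. An exact test of 1 line among 4 cannot give a one-sided p below 0.25.

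Genes were therefore also described by a gap, the distance from the CAKI2 array to the nearest of the other lines in the same treatment. In 322 genes (2.34%) CAKI2 lay above all 3 lines in both treatments by a gap of at least 1, and in 282 genes (2.05%) it lay below them all. The same count was 205 higher and 166 lower for ACHN, 205 and 235 for A498, and 164 and 139 for CAKI1. At a gap of at least 4, CAKI2 had 19 genes higher and 20 lower. In 70 of the higher genes all arrays of the other lines were below 6.50, and such genes passed the filter through the CAKI2 arrays alone. In 109 of the lower genes both CAKI2 arrays were below it. The genes nearest the bound were FBXO17 and MYEOV, just inside with gaps of 1.001 and 1.002, and ACVR1B, just outside at 0.998. On the lower side ZNF300 stood just inside at -1.003 and THYN1 just outside at -0.997. In bulk RNA of this kind, fewer cells with a transcript and less transcript per cell cannot be told apart. Genes named below outside the 10 largest gaps each way and the leading members of each list were chosen after their values were seen.

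JAK1, the tyrosine kinase that relays signals from interferon receptors and from the receptors of the interleukin-6 family, was at dim levels in CAKI2 and bright in the other lines. CAKI2 had 5.44 in DMSO and 4.24 in A939572. ACHN had 13.40 and 13.90, A498 had 13.29 and 13.77, and CAKI1 had 13.68 and 13.76. The 6 other arrays thus ran from 13.29 to 13.90, and CAKI2 lay 7.85 or more below them in each treatment. The difference was -8.80 (SE 0.35, 1 line against 3; limma adjusted p = 0.0227). The deposited signals were 27.7 and 2.64 units in CAKI2 and between 10080 and 15000 units in the other lines. JAK1 has 4 further probe sets with its symbol. The 3 of these that were bright in other lines had differences between -6.46 and -2.56, and the remaining probe set was dim on all arrays (difference 0.02).

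BCAT1, the cytosolic aminotransferase of branched-chain amino acids, had the same pattern. CAKI2 had 5.06 in DMSO and 4.56 in A939572. ACHN had 14.01 and 14.13, A498 had 13.02 and 13.57, and CAKI1 had 13.49 and 14.28. The difference was -8.94 (SE 0.45; limma adjusted p = 0.0370), and the groups did not overlap on any of its 4 probe sets, the other 3 of which had differences of -7.77 to -4.58. Since CAKI2 was dim for both genes, the size depends on the offset, and it was -10.25 for JAK1 and -10.10 for BCAT1 with an offset of 1. Both calls were lost without ACHN (adjusted p = 0.235 for each) and without CAKI1 (0.414 for each) and kept without A498 (0.0377 for each). Each of these fits leaves 1 line against 2, and the differences ran from -8.85 to -8.75 for JAK1 and from -9.17 to -8.78 for BCAT1. Related genes lay within the range of the other lines or near it. JAK2, another kinase of the family, was at 7.18 and 7.54 in CAKI2 against 7.69 to 9.31 in the other lines (difference -0.94, adjusted p = 0.83). BCAT2, the mitochondrial aminotransferase, was at 9.72 and 9.12 in CAKI2 against 8.62 to 9.68 (difference 0.18).

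**Figure D1:**
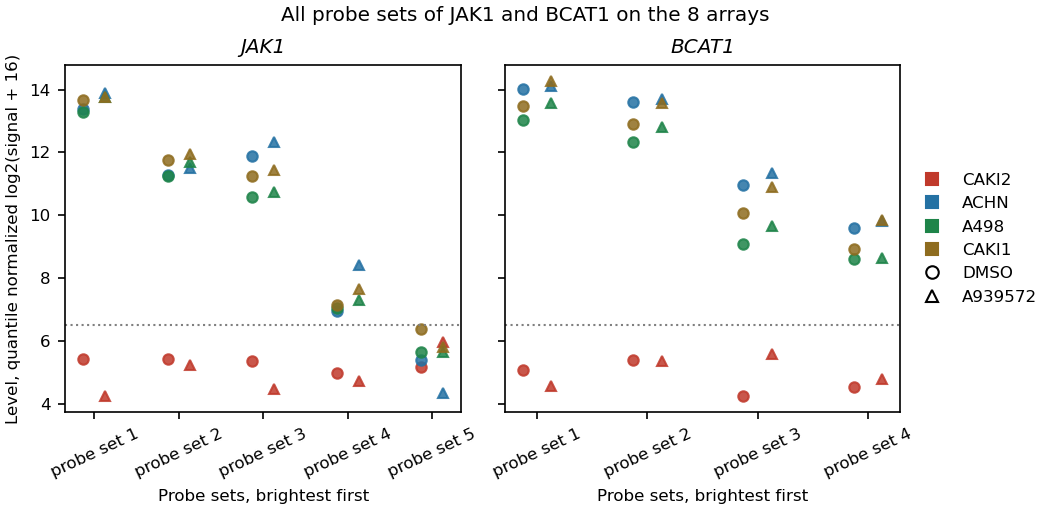
Level of every probe set of JAK1 and BCAT1 on the 8 arrays, as quantile normalized log2(signal + 16), with probe sets ordered by mean level, colour for the line, circles for DMSO and triangles for A939572. The dotted line is the 6.50 bound. CAKI2 lies below it on all 9 probe sets, while the other lines lie above it on 8 of them.

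The promoters of the 2 called genes and of the 2 genes with the largest gap in the other direction, SST and KRT20, are shown because these 4 carry the widest contrasts between CAKI2 and the other lines. Each is the 250 bases before the RefSeq start on GRCh38.p14, 5′ to 3′ on the gene's strand, with CG dinucleotides, the sites of DNA methylation, in capitals. They are reference sequence, not sequence of these cells, and methylation was not measured. They lie at chr1:65067747-65067996 (JAK1), chr12:24949102-24949351 (BCAT1), chr3:187670395-187670644 (SST) and chr17:40885243-40885492 (KRT20), all on the minus strand.
JAK1: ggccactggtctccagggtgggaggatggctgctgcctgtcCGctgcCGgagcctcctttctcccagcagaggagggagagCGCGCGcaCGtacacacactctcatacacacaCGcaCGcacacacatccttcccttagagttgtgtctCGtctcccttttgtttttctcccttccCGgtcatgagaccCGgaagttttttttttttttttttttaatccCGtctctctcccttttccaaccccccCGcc
BCAT1: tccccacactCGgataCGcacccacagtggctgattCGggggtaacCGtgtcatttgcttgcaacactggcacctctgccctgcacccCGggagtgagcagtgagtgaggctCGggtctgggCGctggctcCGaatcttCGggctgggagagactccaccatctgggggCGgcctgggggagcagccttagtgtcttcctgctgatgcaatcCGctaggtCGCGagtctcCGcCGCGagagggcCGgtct
SST: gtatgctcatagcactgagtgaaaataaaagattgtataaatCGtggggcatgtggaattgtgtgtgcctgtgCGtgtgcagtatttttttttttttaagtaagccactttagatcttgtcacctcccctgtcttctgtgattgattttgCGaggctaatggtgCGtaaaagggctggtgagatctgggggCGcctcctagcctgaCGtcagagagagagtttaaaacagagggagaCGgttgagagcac
KRT20: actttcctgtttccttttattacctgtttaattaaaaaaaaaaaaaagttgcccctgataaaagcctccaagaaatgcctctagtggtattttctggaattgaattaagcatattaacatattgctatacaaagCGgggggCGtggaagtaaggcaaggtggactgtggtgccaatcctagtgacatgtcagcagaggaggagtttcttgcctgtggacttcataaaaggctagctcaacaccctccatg
The genes dim in CAKI2 had 13 (JAK1) and 17 (BCAT1) CG dinucleotides in this window, and the genes bright in it had 7 (SST) and 2 (KRT20). The median over the 11073 tested genes with a promoter in the table was 20. It was 18 for the 254 matched genes with CAKI2 higher by a gap of at least 1 and 17 for the 231 lower ones, and the lower quartiles of 6.25 and 6 stood below the 13 of all tested genes. The SST window holds 1 match to TGACGTCA, the cyclic AMP response element through which somatostatin transcription is known to be controlled, whose first base lies 47 bases before the start. That motif, which reads the same on both strands, occurred in 1.77% of 27305 promoters of this length and in 2.75% of those of tested genes.

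Among the genes higher in CAKI2, the widest gaps belonged to genes that kidney epithelium is not chiefly known for. SST, the peptide hormone somatostatin, was at 13.21 in DMSO and 13.29 in A939572, while the 6 other arrays ran from 4.49 to 5.95. Its difference was 8.42 (SE 0.52), which missed the threshold narrowly (limma adjusted p = 0.0541). KRT20, a keratin of intestinal and urothelial cells, was at 13.32 and 13.35 against 4.37 to 6.23, with a difference of 8.32 (SE 0.50) and the same adjusted p of 0.0541. For both genes CAKI2 was bright and the 6 other arrays were all below the bound. UCA1, a long noncoding RNA first described in urothelial cancer, was at 13.59 and 12.54 against 4.31 to 6.25 (difference 7.68, SE 0.71, adjusted p = 0.0839).

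The rest of the 10 widest gaps were of mixed kinds. The noncoding RNA LINC02582 was at 9.82 and 10.68 against 4.13 to 4.61, and SERPINB5, the epithelial serpin maspin, was at 10.63 and 9.31 against 4.18 to 4.49. NDN, an imprinted gene for a protein of postmitotic neurons, was at 10.99 and 9.82 against 4.30 to 6.42. In those genes too the other lines were dim throughout. TRHDE, an ectoenzyme that degrades thyrotropin-releasing hormone, was at 10.88 and 10.22, and only the CAKI1 DMSO array among the others passed the bound, at 6.67. SIGLECL1 was at 10.36 and 10.30 against 4.16 to 6.26. Elsewhere A498 stood between CAKI2 and the rest. ADGRG2, an adhesion G protein-coupled receptor, was at 13.69 and 12.54 in CAKI2, at 9.46 and 8.35 in A498 and at 4.30 to 4.58 in ACHN and CAKI1. CYP4F3, an omega-hydroxylase of leukotriene B4, was at 12.58 and 12.31 in CAKI2, at 7.77 and 8.03 in A498 and at 5.12 to 6.04 in the others. Adjusted p for these 7 genes lay between 0.0864 and 0.487, and each had no other bright probe set.

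Peptide hormone granules carry further proteins beside somatostatin. CHGA, the granule protein chromogranin A, was at 10.21 and 9.41 in CAKI2 against 4.39 to 7.61 in the other lines (difference 4.29, adjusted p = 0.39). SCG2, secretogranin II, was at 8.82 and 10.17 against 5.71 to 6.74. CHGB did not share that order: it was at 4.57 and 5.52 in CAKI2 and highest in ACHN, at 7.56 and 7.40. PAM, the enzyme that amidates peptide hormones, was at 13.08 and 12.82 in CAKI2 against 12.88 to 13.94 in the other lines.

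**Figure D2:**
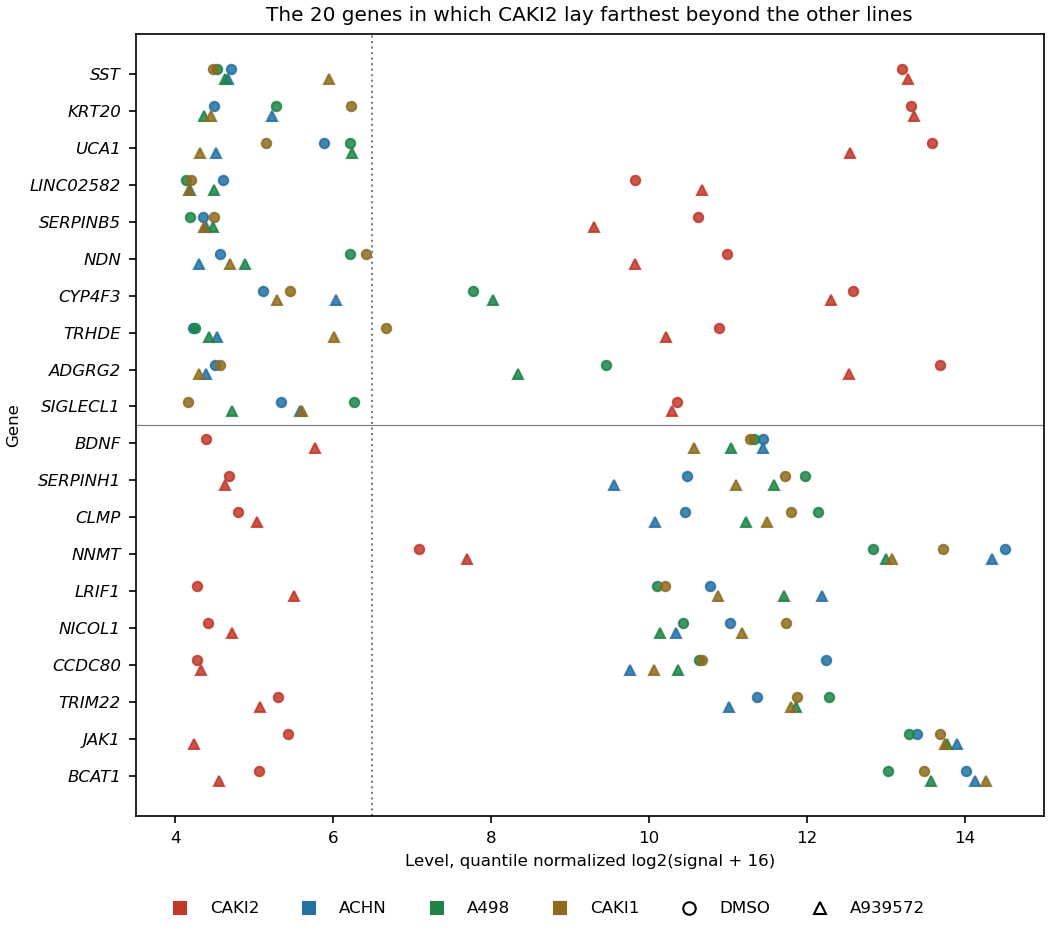
Level on each of the 8 arrays, as quantile normalized log2(signal + 16), of the 10 genes each way in which CAKI2 lay farthest beyond the other lines, with the 6.50 bound dotted. Red CAKI2 symbols lie to the right of all others in the upper 10 genes and to the left in the lower 10, and A498 (green) is intermediate in CYP4F3 and ADGRG2.

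Among the genes lower in CAKI2, the 8 widest gaps after JAK1 and BCAT1 belonged to genes of varied function. TRIM22, an interferon-induced ubiquitin ligase, was at 5.30 and 5.08 in CAKI2 against 11.02 to 12.28 (difference -6.51, SE 0.50, adjusted p = 0.0632). CCDC80, a matrix-associated secreted protein, was at 4.27 and 4.32 against 9.76 to 12.24. SERPINH1, the endoplasmic reticulum chaperone that collagen needs for folding, was at 4.69 and 4.63 against 9.56 to 11.97. CAKI2 was dim and the other 6 arrays bright in each of them.

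CLMP, a cell adhesion molecule, was at 4.80 and 5.04 in CAKI2 against 10.08 to 12.14, and BDNF, a neurotrophin, was at 4.39 and 5.77 against 10.57 to 11.45. BDNF passed the limma threshold on the DMSO arrays taken alone (adjusted p = 0.0496) but not on both treatments (0.0632). NICOL1 was at 4.41 and 4.72 against 10.14 to 11.74, and LRIF1, a nuclear factor of heterochromatin, at 4.28 and 5.50 against 10.10 to 12.19. NNMT, which methylates nicotinamide and is known to be abundant in clear cell carcinoma, was far lower in CAKI2, at 7.09 and 7.70 against 12.84 to 14.51. The probe set used for NNMT was not dim in CAKI2, but its 2 other bright probe sets were. They were at 5.21 and 6.04 and at 4.45 and 4.46. Adjusted p for these 8 genes lay between 0.0632 and 0.150. CCDC80, CLMP, NNMT and BDNF have other bright probe sets, all lower in CAKI2, with differences from -6.97 to -3.01.

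Further genes with gaps beyond 3 in size gave the same contrast across all their arrays. On the higher side, TINAG, a basement membrane antigen of the renal tubule, was at 12.34 and 11.53 against 6.49 to 8.29. ROBO2, an axon guidance receptor with a role in ureter development, was at 8.74 and 9.31 against 4.31 to 5.28. RORA, a nuclear receptor, was at 9.65 and 10.35 against 5.04 to 6.57. On the lower side, CASP4, the inflammatory caspase that senses bacterial lipopolysaccharide, was at 4.42 and 4.62 against 8.77 to 10.38. WLS, which carries WNT proteins to the cell surface, was at 6.36 and 4.54 against 10.14 to 11.52, and FSTL1, a secreted glycoprotein of mesenchymal cells, at 4.75 and 5.52 against 9.88 to 13.01. Over all 604 genes with a gap of at least 1, 312 had other bright probe sets, and in 290 of these all of them differed in the same direction.

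The comparison was also made within each treatment. Over all genes tested, the difference in DMSO and the difference in A939572 correlated at 0.827, a value across genes that are not independent. A test of the change in the CAKI2 difference between treatments called 0 of 13763 genes (0%) by limma, with 726 at an unadjusted p of 0.05, of which 71 were among the 604 genes with a gap of at least 1. The median size of the change was 0.38 in those 604 and 0.30 over all genes. With 1 line against 3, a count of 0 does not show that the differences were equal in both treatments, and the 604 genes were chosen for lying on the same side in both. GPX2 had the widest change among the genes named by rule: its difference was 6.91 in DMSO and 4.23 in A939572.

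**Figure D3:**
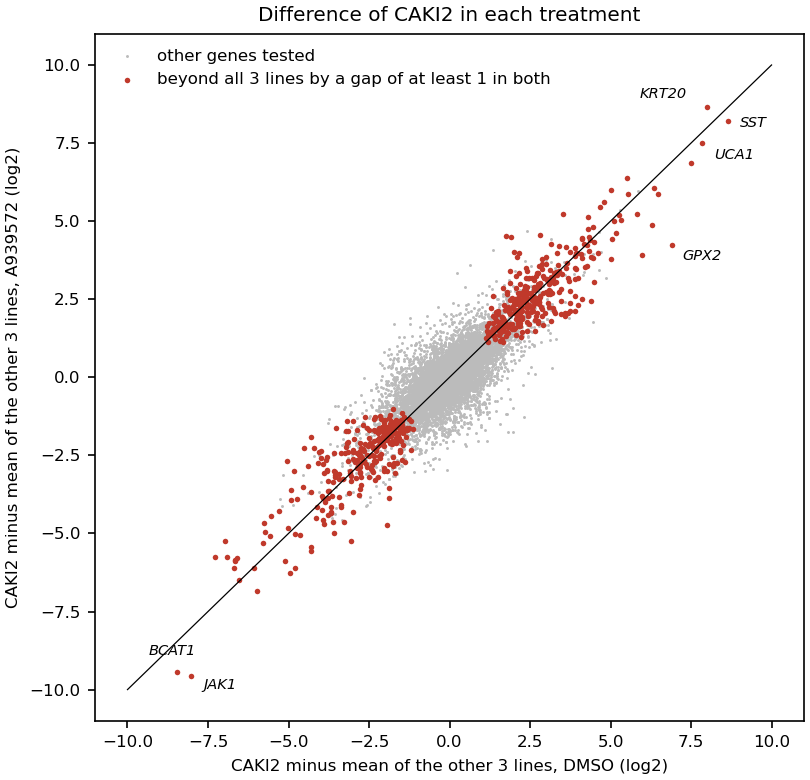
CAKI2 minus the mean of the other 3 lines in DMSO (x axis) and in A939572 (y axis), both log2, for each tested gene. The black line marks equal differences. Genes with a gap of at least 1 in both treatments (red) have the same sign on both axes by the way they were chosen, with KRT20 and SST at the upper end and BCAT1 and JAK1 at the lower end.

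Lists of genes for kidney lineage, epithelial state, cancer pathways and other cell types were drawn up to describe the line. They held 1057 genes, of which 951 had a probe set and 734 were tested. The median difference over all tested genes was 0.01. Against it stood 1.05 in 40 tested genes of the hypoxia-inducible factor pathway and 0.81 in 52 targets of NRF2 and detoxification enzymes. Also on the higher side were 0.75 in 10 neural and muscle markers and 0.57 in 35 epithelial adhesion and polarity genes. On the lower side were -0.57 in 29 mesenchymal genes, -0.50 in 25 HOX genes, -0.45 in 31 coagulation, complement and plasminogen genes and -0.39 in 55 interferon and antigen presentation genes. The 5 tested fibroblast markers had -1.93, but their median was -0.07 against ACHN, -1.26 against A498 and -0.21 against CAKI1. No list member passed the adjusted threshold, and the counts that follow use the gap of at least 1, which 2.34% of all tested genes met on the higher side and 2.05% on the lower.

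**Figure D4:**
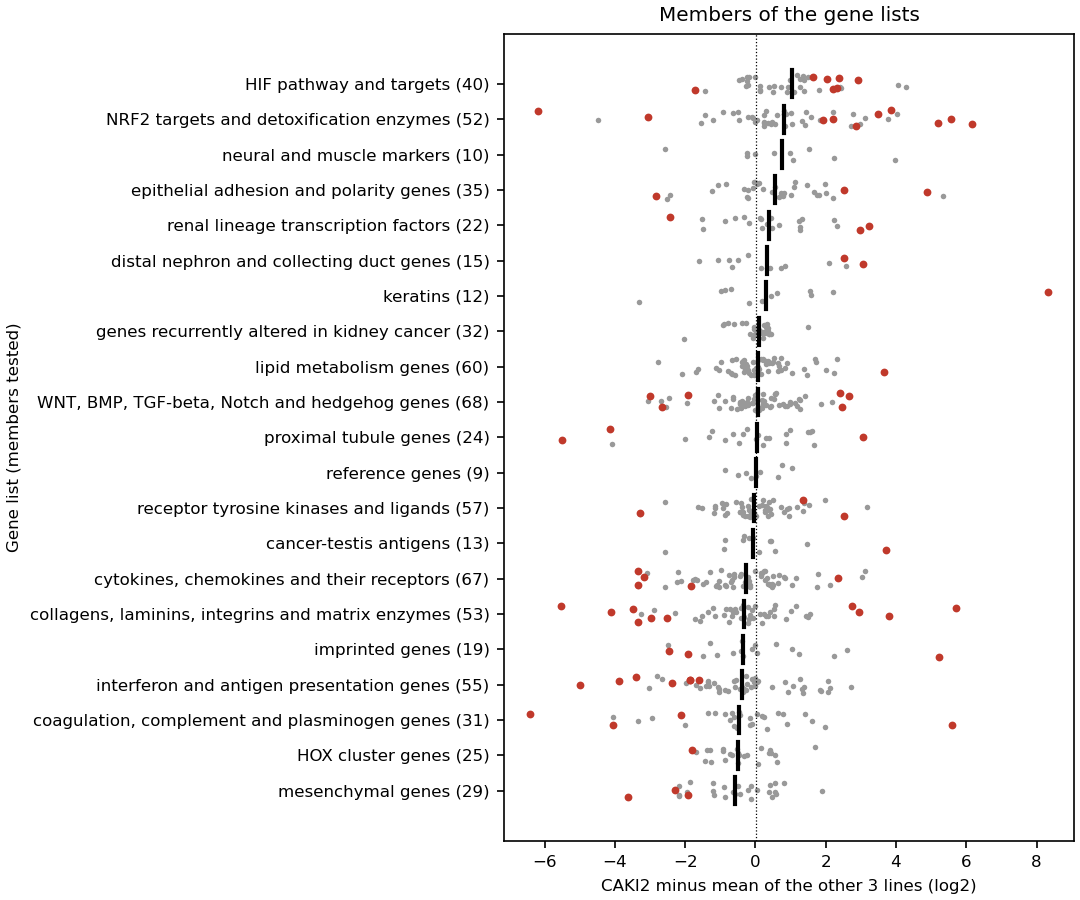
CAKI2 minus the mean of the other 3 lines (log2) for every tested member of each gene list with at least 9 such members, ordered by list median (black bar). Red points are members with CAKI2 beyond all other lines by at least 1 in both treatments, and the dotted line is the median of all tested genes. The bar of the hypoxia-inducible factor list is at 1.05 and that of the mesenchymal list at -0.57.

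In the hypoxia-inducible factor list, 6 of 40 tested members (15%) were higher in CAKI2 by the gap rule and 1 (2.5%) was lower, and 30 of 40 had a positive difference. The 6 include enzymes that steer glucose use. PDK1, the kinase that holds pyruvate out of the citric acid cycle, was at 12.70 in DMSO and 13.11 in A939572 against 10.02 to 11.20 in the other lines (difference 2.38, adjusted p = 0.35). PFKFB3, a regulator of glycolytic flux, was at 13.58 and 13.48 against 10.40 to 11.87. ENO2, an enolase, was at 11.08 and 10.78 against 5.39 to 9.52. HK2, a hexokinase, was at 12.39 and 13.60 against 9.68 to 11.51, but neither of its 2 other bright probe sets was higher in CAKI2. ANGPTL4, an inhibitor of lipoprotein lipase, and ERO1A, an oxidase of protein folding, had differences of 2.05 and 1.64. CAKI2 thus lay above every other array for these 6 genes on the probe sets used.

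Other members reached high levels in A498 as well. CA12, a carbonic anhydrase, was at 14.60 and 14.31 in CAKI2, at 13.90 and 12.86 in A498 and at 8.18 to 9.01 in ACHN and CAKI1. EGLN3, an oxygen-sensing prolyl hydroxylase, was at 11.34 and 10.46 in CAKI2, at 10.47 and 8.50 in A498 and at 4.65 to 6.38 in the others. SLC2A3, a glucose transporter, went the other way, at 7.08 and 8.52 in CAKI2 against 8.20 to 10.26. The regulators themselves showed no wide gap. VHL was at 8.69 and 9.25 in CAKI2 against 8.31 to 9.35, and HIF1A at 14.04 and 14.54 against 14.31 to 14.78. EPAS1, which encodes HIF-2α, was lower in CAKI2 on the DMSO array, at 10.42 against 12.42 to 12.69, and at 11.76 against 11.98 to 12.90 in A939572. The list median was 1.36 against ACHN, 0.67 against A498 and 0.81 against CAKI1.

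Of 52 tested NRF2 targets and detoxification enzymes, 8 (15.4%) were higher in CAKI2 by the gap rule and 2 (3.85%) were lower. GPX2, a glutathione peroxidase of epithelia, was at 12.31 in DMSO and 10.55 in A939572 against 4.97 to 6.75 (difference 5.57, SE 0.45, adjusted p = 0.0675). GCLC, the catalytic subunit of the enzyme that begins glutathione synthesis, was at 13.08 and 14.09 against 10.84 to 12.15. GSTA4, a glutathione transferase, was at 11.44 and 11.02 against 7.40 to 9.33. SULT1C2, a sulfotransferase, was at 12.44 and 12.82 in CAKI2 with CAKI1 next at 11.26 and 11.16, while ACHN and A498 ran from 4.25 to 7.48. CYP4F3, CYP4F11, UGT1A6 and CBR1 complete the 8. ABCB1, the drug efflux pump P-glycoprotein, was lower, at 7.14 and 7.64 against 9.70 to 11.09. NQO1, a classical NRF2 target, was above every array of the same treatment by only 0.36, and KEAP1 and NFE2L2, the repressor and the factor itself, had differences of -0.06 and 0.23. The list median was 1.04 in DMSO and 0.34 in A939572. Against A498 alone it was 0.21.

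No interferon or antigen presentation gene was higher in CAKI2 by the gap rule (0 of 55, 0%), and 7 (12.7%) were lower. GBP1, an interferon-induced GTPase, was at 4.43 in DMSO and 4.16 in A939572 against 7.75 to 11.03. GBP2, of the same family, was at 4.34 and 6.24 against 8.40 to 9.14, and IFITM3, a membrane protein that blocks virus entry, was at 8.32 and 7.98 against 11.18 to 12.66. CAKI2 was below every other array for these 3. IFITM2, IFI16, PSMB10 and SAMHD1 had differences between -2.38 and -1.60. Adjusted p for GBP2 and IFITM3 was 0.15 and 0.17. IFIT2, another interferon-induced gene, had the opposite order, at 10.88 and 14.37 in CAKI2 against 9.30 to 12.50 (difference 2.07). The list median was -0.995 against A498 and nearer 0 against ACHN (-0.10) and CAKI1 (-0.13).

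The interferon-stimulated response element is the promoter motif bound by the factors that act downstream of JAK1. Its core was searched, on both strands, as GAAA and a further GAAA separated by any 2 bases, in the 250 bases before the start. It occurred in 3.07% of 27305 promoters, in 2.28% of those of tested genes and in 24 of the 45 interferon and antigen presentation genes with a promoter in the table (53.3%). Of the 7 genes lower in CAKI2, 5 had a promoter in the table and 3 of these held a match. All 4 matches in these 3 genes are shown, with the motif in capitals and 10 bases on each side, on the gene's own strand of GRCh38.p14, at chr11:320893-320922 and chr11:320876-320905 (IFITM3, first and second match, whose windows overlap), chr1:89065316-89065345 (GBP1) and chr16:67936852-67936881 (PSMB10). In GBP1 the motif is on the opposite strand and so reads as its reverse complement.
IFITM3 first: caaatgccagGAAAAGGAAActgttgagaa
IFITM3 second: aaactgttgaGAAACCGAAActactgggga
GBP1: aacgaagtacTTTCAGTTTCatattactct
PSMB10: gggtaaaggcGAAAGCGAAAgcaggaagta
The share with a match was 60% among those 5 genes and 53.3% in the whole list. A match is a description of letters and not a measured binding site.

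Cytokines and their receptors had 4 of 67 tested members (5.97%) lower in CAKI2 by the gap rule and 1 (1.49%) higher. IL6, the cytokine interleukin-6, was at 7.90 in DMSO and 11.27 in A939572 against 10.75 to 12.65 in DMSO and 13.33 to 15.18 in A939572. CXCL2, a neutrophil chemokine, was at 7.46 and 12.46 against 9.81 to 12.56 and 14.48 to 15.24. CXCL8, of the same class, followed that order with a difference of -1.84. All 3 were higher in A939572 than in DMSO in every line, and CAKI2 was the lowest line in each treatment. CXCL2 shares much sequence with its paralogs, so its probe set is uncertain. IL1R1, the receptor of interleukin-1, was at 5.84 and 6.56 against 8.49 to 10.56. TNFSF15, a cytokine of the tumour necrosis factor family, was the higher member, at 8.45 and 9.02 against 5.93 to 6.86.

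Epithelial and mesenchymal genes were described next. Of 35 tested epithelial adhesion and polarity genes, 2 (5.71%) were higher by the gap rule and 1 (2.86%) lower, with a median of 0.57. CLDN4, a claudin of tight epithelia, was at 10.88 and 10.84 in CAKI2, at 7.96 and 7.86 in A498 and at 4.45 to 5.51 in ACHN and CAKI1. CLDN3 was at 8.35 and 7.96 against 4.46 to 6.52. CLDN12, a further claudin, had the opposite order by less than a gap of 1, at 10.90 and 11.40 against 11.72 to 12.78 (difference -1.06). PKP2, a desmosome protein, was lower at 7.02 and 6.40 against 8.40 to 11.41. The list median against ACHN alone was 0.07. Among 12 tested keratins only KRT20 met the gap rule (8.33%). KRT18, a keratin of simple epithelia, was at 12.86 and 12.79 in CAKI2 against 12.73 to 14.38.

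Of 29 tested mesenchymal genes, 3 (10.3%) were lower by the gap rule and 0 (0%) higher. With no minimum gap, 10 lay below every other line in both treatments and 3 lay above, against 15.7% and 17.5% of all tested genes. ZEB2, a repressor of epithelial genes, was at 5.74 and 6.82 in CAKI2 against 8.88 to 10.91 (difference -3.63, adjusted p = 0.15), and both of its other bright probe sets were lower too. CALD1, which binds actin, and SPARC, a secreted collagen-binding protein, had differences of -1.91 and -2.30. ZEB2 in CAKI2 was thus near the dim bound, while CALD1 at 11.81 and 11.66 stayed bright.

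Matrix genes differed in both directions. Of 53 tested collagens, laminins, integrins and matrix enzymes, 4 (7.55%) were higher in CAKI2 by the gap rule and 6 (11.3%) lower. MMP7, the protease matrilysin, was at 14.03 in DMSO and 13.39 in A939572 against 6.69 to 9.94 (difference 5.70, SE 0.92, adjusted p = 0.25). COL4A3 and COL4A4, chains of the collagen IV network of the glomerular and tubular basement membrane, had differences of 3.80 and 2.94, and COL4A5, whose product joins them, was lower with -2.51. The 3 chains of 1 network therefore did not share a direction. ITGB8, an integrin chain that binds latent transforming growth factor beta, had 2.76. NID1, a linker of basement membranes, was at 5.09 and 4.29 against 8.97 to 10.998 (difference -5.54, SE 0.46, adjusted p = 0.0682). COL1A1, ITGA4, COL12A1 and TNC were the other lower members, with differences from -4.12 to -2.97.

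The nephron lists gave a mixed picture. Of 40 proximal tubule genes with a probe set, 9 reached the bound on both CAKI2 arrays, against 13 to 17 on both arrays of the other lines. Of the 24 tested, 1 (4.17%) was higher by the gap rule and 2 (8.33%) were lower. PDZK1, a scaffold of apical transporters, was higher in CAKI2 at 11.91 on both arrays against 7.07 to 10.66. DAB2, an endocytic adaptor, was lower at 6.26 and 6.49 against 9.49 to 11.33, and VCAM1, an adhesion molecule, at 5.78 and 5.14 against 8.46 to 12.64. Of 38 distal nephron and collecting duct genes with a probe set, 10 reached the bound on both CAKI2 arrays. In the other lines 7 to 10 did so. Of the 15 tested, 2 (13.3%) were higher by the gap rule and 0 (0%) lower, while 9 had a positive difference and 6 a negative one. GATA3, a transcription factor of the collecting duct, was at 10.49 and 10.96 against 6.24 to 8.73, and EGF, the epidermal growth factor made by distal tubules, at 9.88 and 9.91 against 6.45 to 8.73. AQP2, the water channel that defines principal cells, was at 6.48 and 6.69 against 5.80 to 6.94, so this marker stayed at the bound in all lines. SCNN1A, of the same list, was lowest in CAKI2 at 4.49 and 4.60. ACHN was next at 4.93 and 4.82, and A498 and CAKI1 ran from 6.01 to 7.48.

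Transcription factors of the renal lineage were measured in 22 tested genes, of which 2 (9.09%) were higher and 1 (4.55%) lower by the gap rule. POU3F3, a factor of the loop of Henle and distal tubule, was at 12.98 and 12.25 against 7.57 to 11.55, and IRX3, a homeobox factor of the nephron, was at 10.96 and 11.73 against 4.95 to 10.41. BNC2, a zinc finger protein, was lower at 6.58 and 6.63 against 8.19 to 10.18. In 25 tested HOX genes the median was -0.50, with 17 members lower on average. HOXD13 alone met the gap rule (4%), at 4.75 and 5.04 against 6.39 to 7.13, so the other lines were near the bound. Its other probe sets were dim on all arrays, with differences of -0.44 and 0.05. HOXD9 had the opposite order by less than a gap of 1, at 8.18 and 8.03 against 5.17 to 7.53 (difference 1.71). The 32 tested genes recurrently altered in kidney cancer had 0 members beyond the gap on either side. PBRM1, a chromatin remodelling subunit, came nearest among those named by rule, at 9.07 and 9.27 against 9.78 to 10.30.

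Signalling genes lay beyond the gap on both sides. Of 68 tested genes of the WNT, BMP, TGF-beta, Notch and hedgehog pathways, 3 (4.41%) were higher and 3 (4.41%) lower. Over all tested genes the shares were 2.34% and 2.05%. SHH, the hedgehog ligand, was at 9.57 and 8.79 against 5.25 to 6.91. ID4, an inhibitor of helix-loop-helix factors, was at 9.40 and 8.70 against 5.61 to 7.37, a difference of 2.47. Its 3 other bright probe sets had wider differences, from 3.15 to 6.65. JAG1, a Notch ligand, had a difference of 2.41. FZD2, a WNT receptor, DKK3 and LFNG were lower, and the only other bright probe set of LFNG ran the other way. Among 57 tested receptor tyrosine kinases and ligands, PDGFD and EGF were higher (3.51%) and GAS6 was lower (1.75%). GAS6, the ligand of AXL, was at 6.48 and 6.65 against 9.06 to 10.69. MET, the receptor of hepatocyte growth factor, was bright in all lines, with a difference of 0.33.

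The remaining lists held 1 to 4 members each beyond the gap. DDX43, the only 1 of 13 tested cancer-testis antigens beyond the gap (7.69%), was at 7.82 and 8.83 in CAKI2 against 4.18 to 5.27. LIPG, the endothelial lipase, was the only 1 of 60 tested lipid metabolism genes beyond the gap (1.67%), at 9.98 and 10.41 against 4.69 to 7.48. Of 19 tested imprinted genes, 2 (10.5%) were lower, ZDBF2 with -1.91 and KCNQ1OT1 with -2.47, and NDN (5.26%) was higher. Of 31 tested coagulation, complement and plasminogen genes, 3 (9.68%) were lower and 1 (3.23%) higher. The lower members were TFPI and CFI, with -2.12 and -4.04, and SERPINH1, given above. The higher member was SERPINB5, also given above.

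Some markers of other cell types were bright in CAKI2, and the counts are of markers that reached the bound on both arrays of a line. Of 17 leukocyte markers with a probe set, 4 reached it in CAKI2 and 3 in each other line. ITGAM, an integrin chain of myeloid cells, was at 8.40 and 9.04 against 6.01 to 7.91, but its other bright probe set had a difference of -0.47. ITGAX, of the same family, was at 7.63 and 8.21 against 5.67 to 7.49, and CD53 and CD79A were the others. PTPRC, the leukocyte common antigen, was at 4.11 and 5.28. Of 12 endothelial markers, 1 reached it in CAKI2 and 1 to 2 in the other lines. In CAKI2 this was PECAM1, at 8.84 and 8.34 against 7.001 to 7.29 (difference 1.43). That value rests on 1 probe set, and the other 4 of PECAM1 were dim, with differences from -0.15 to 0.68. CDH5, the cadherin of endothelium, was at 4.44 and 4.34. Of 12 fibroblast markers, 1 reached it in CAKI2 and 2 to 3 in the other lines. In CAKI2 this was FBLN1, a matrix protein, at 8.86 and 8.26, between A498 (10.40 and 9.25) and the other lines (5.996 to 7.14). COL3A1 was at 5.22 and 6.16 in CAKI2.

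Of 18 hepatocyte and gut markers, 2 reached the bound in CAKI2, against 0 to 4 in the other lines. The 2 were CYP3A4 at 7.82 and 8.51 against 5.33 to 7.91, and AFP at 7.27 and 6.96 against 6.02 to 8.975, highest in A498. ALB was at 5.69 and 5.23. CDH17, a gut marker, was at 6.145 and 4.61 in CAKI2. It was slightly lower in ACHN (6.03 and 4.37) and higher in A498 (9.425 and 8.29) and CAKI1 (7.97 and 6.84). The 3 other bright probe sets of CYP3A4 had differences from -0.98 to 0.01. Of 21 neural and muscle markers, 7 reached the bound, against 4 to 6 in the other lines. NEFL, a neurofilament chain, was at 14.56 and 13.40 in CAKI2, at 13.65 and 12.13 in A498 and at 5.43 to 11.64 in ACHN and CAKI1. SYT1, a synaptic vesicle protein, was at 11.21 and 12.48 in CAKI2, with ACHN next at 10.60 and 11.85. TUBB3, MBP, SNAP25, ACTN2 and GAP43 were the other 5. Mean levels over the CAKI2 arrays were 5.91 for the leukocyte list (5.72 to 5.86 in other lines), 5.34 for the endothelial list (5.44 to 5.51) and 5.73 for the fibroblast list (5.80 to 6.65). They were 5.79 for the hepatocyte and gut list (5.39 to 5.95) and 6.77 for the neural and muscle list (6.05 to 6.56). Of 9 reference genes, 0 met the gap rule, and their median of 0.02 turned to -0.07 under median centring.

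The share of genes beyond the gap was set out by chromosome, as a description with no test. The annotation placed 312 of the higher and 281 of the lower genes with a gap of at least 1 on chromosomes 1 to 22 and X. Chromosome 19 had 30 higher and 3 lower among 905 tested genes (3.31% and 0.331%), and chromosome 6 had 35 and 11 among 742 (4.72% and 1.48%). The highest lower shares were 4.33% on chromosome 4 (23 of 531, beside 3.39% higher) and 3.59% on chromosome 13 (9 of 251, beside 0.797% higher). The median difference was highest on chromosome 21 (0.36) and chromosome 22 (0.34) and lowest on chromosome 13 (-0.28). On chromosome 13 the median was below 0 against each line (-0.28 against ACHN, -0.34 against A498 and -0.22 against CAKI1). On chromosome 19 it was above 0 against each (0.38, 0.17 and 0.19). On chromosome 21 it was 0.02 against A498, so that value came from the comparison with ACHN and CAKI1. Gene copy number was not measured, and its part in these medians was not tested.

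**Figure D5:**
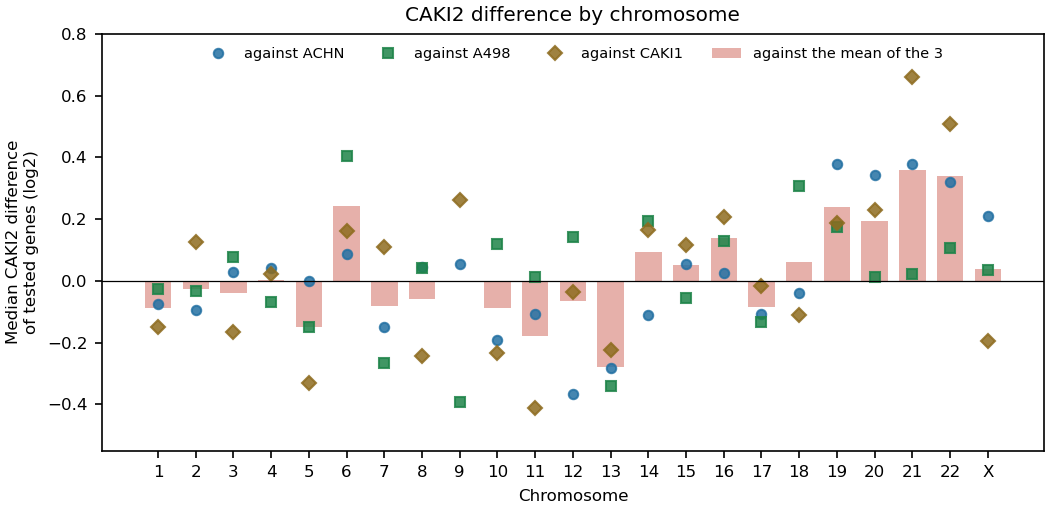
Median CAKI2 difference (log2) of the tested genes of each chromosome, as bars against the mean of the other 3 lines and as symbols against each line. Chromosomes 6, 13, 19 and 22 are among those that keep their direction against all 3 lines. On others, such as chromosomes 9 and 12, the lines fall on opposite sides of 0.

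Chromosome 19 carries large clusters of KRAB zinc finger genes, which encode repressors of transposable elements. Its 180 tested genes with a ZNF or ZFP symbol had 14 members higher in CAKI2 by the gap rule (7.78%) and 0 lower, with a median difference of 0.71. The median was 0.81 against ACHN, 0.75 against A498 and 0.56 against CAKI1. The other 725 tested genes of chromosome 19 had 16 higher and 3 lower (2.21% and 0.414%), with a median of 0.17. The 241 tested genes with such symbols on other chromosomes had 5 higher and 4 lower (2.07% and 1.66%), also with a median near 0.17. Among runs of 25 neighbouring tested genes, chosen after the data were seen, the highest median in the genome was on chromosome 19, from ZFP82 to SPINT2, at 1.15. That run held 22 zinc finger symbols, and 23 of its 25 genes were higher on average. Its median was 1.10, 1.19 and 1.003 against ACHN, A498 and CAKI1. SPINT2, at its end, was at 13.44 and 13.01 in CAKI2 and at 12.53 and 11.58 in CAKI1, against 4.76 to 6.57 in ACHN and A498. The lowest run lay on chromosome 12, from NOPCHAP1 to ALKBH2, at -0.94. The zinc finger genes are close paralogs, and probe sets that match several of them cannot be told apart here.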

How the data were processed

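Each oligonucleotide array received biotin-labelled cRNA made from total RNA, per the labels' protocols. The deposited values are intensity signals on a linear scale, 1 per probe set. The program that made them is not given in the sources used here, but the values show that the authors scaled each array to a mean near 500.07 after trimming 2% at each end. They were transformed as log2(signal + 16) and quantile normalized without 62 control probe sets. Of 54675 probe sets, 41091 had 1 gene symbol, 1801 had several and 11721 were unnamed. Each gene was represented by the probe set with the highest mean, which left 19775 genes, and 13763 with at least 2 arrays at or above 6.50 were tested. Probe sets measure near the 3′ end of transcripts and can miss other isoforms.

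The arrays of a line were averaged, since line is the replicate, and CAKI2 was compared with the other 3 lines by limma 3.58.1 in R 4.3.3 (lmFit, eBayes with a mean-variance trend, 2-sided, Benjamini-Hochberg threshold 0.05). Residual and prior degrees of freedom summed to 5.04, the median SE was 0.51, and precision is limited by having 4 lines. Treatment dependence was tested on differences within lines. Simulated data for 13763 genes had 50 genes changed at each size and a fixed noise between arrays of a line, not estimated from these arrays. The fit was tried on them. It recovered 0% of genes changed by 1 log2 unit, 2% by 2, 88% by 4 and 98% by 8. Beside these it made 10 false calls, and 232 when arrays were taken as independent.

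Members and lists were chosen with earlier results of these data known. Genes are named by rule: those past the threshold, the 10 widest gaps each way, and per list up to 4 members past the threshold or the 2 with the smallest p. Others were chosen after their values were seen, and some genes are not reported here. Of the listed genes, 106 had no probe set with 1 symbol and were not analysed here. RefSeq tables of GRCh38.p14 gave names, neighbours and promoters, and 41037 probe sets matched a current symbol. Alternatives covered normalization, offset, filter, probe sets, the fit and left-out lines.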

Additional observations from a re-analysis of the deposited data

Results flagged for a closer look

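Probe sets without a single gene name were outside the comparisons. Of 6084 such probe sets at or above 6.50 on at least 2 arrays, CAKI2 lay above all other lines by a gap of at least 1 in both treatments in 97 (1.59%) and below them in 60 (0.986%). The same counts were 50 and 56 for ACHN, 94 and 59 for A498, and 49 and 50 for CAKI1. These signals were left without gene names and were not followed further.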

How the results depend on the processing

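With 1 line against 3, the limma counts moved with most settings. Genes higher in CAKI2 (0 as reported) numbered 2 without normalization between arrays, 8 with an offset of 64, 5 without a filter, 2 with a filter on the mean, 3 when the probe sets of a gene were averaged, 4 without probe sets matching several transcripts and 2 without a variance trend. Genes lower (2 as reported) numbered 1 with median centring, 4 with an offset of 1, 8 without a filter and 0 when probe sets were averaged. Fits on all 8 arrays gave 31 higher and 65 lower with line as a random block, 272 and 303 with arrays as if independent, and 2460 and 2335 with line as a fixed effect, where the spread is within lines. Leaving out each other line gave 0 to 12 higher and 0 to 13 lower, the highest without A498 in each case. The gap counts were 322 higher and 282 lower as reported. A filter on the mean turned their balance to 241 and 265, and they were 258 and 206 with an offset of 64 and 264 and 203 with averaged probe sets. They were 2407 and 2154 at any gap, 81 and 84 at a gap of 2, and with each other line left out 455 to 586 and 428 to 541, again highest without A498, where fewer lines have to be passed.

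JAK1 passed the threshold in 15 of 18 alternatives and BCAT1 in 14 of 18, with adjusted p up to 0.414. When probe sets were averaged it was 0.0551 for JAK1 and 0.0698 for BCAT1, and with median centring 0.0522 for BCAT1. The 18 alternatives include the fits with line as a random block, with arrays as if independent and with line as a fixed effect. JAK1 and BCAT1 passed in each of these. Such fits draw on the separate arrays of a line or on the spread within lines, so a pass in them is not a pass with line as the replicate. Over 65 named genes and their alternatives, these fits included, 967 of 1144 values kept direction and side, 167 passed only in the alternative and 7 were lost. The 3 that reversed, without probe sets matching several transcripts, were ITGAM (-0.47), CYP3A4 (-0.98) and FADS2 (0.27), where another probe set stands for the gene. ITGAM and CYP3A4 are among the markers of other cell types given above, and FADS2 was not described. Of the 604 genes beyond a gap of 1, 586 stayed under median centring, 578 without normalization, 459 with an offset of 64 and 424 of 573 with the mean of probe sets. No count of treatment-dependent genes other than 0 arose under the 7 alternatives run. The arrays pair by line, as in the fits with line as a block given above, and the labels carry no replicate numbers that would pair them otherwise.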
